A study of Mus musculus with 6 samples.

Results

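The genes described here are the mouse zinc finger protein genes, taken as every gene whose deposited name begins with Zfp followed by a digit. The nearest-gene column of the 6 peak lists named 260 such genes out of 14930, and 1885 of 134964 peaks were assigned to them. Of the 260 genes, 255 were annotated as protein-coding and 5 as other types. All 260 matched a RefSeq gene by identifier. The assignment is to the nearest transcription start site (TSS), so a peak counted for a gene may lie far from it and need not act on it.

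The peaks came from chromatin immunoprecipitation sequencing (ChIP-seq) of bone marrow-derived macrophages (BMDMs), primary macrophages grown from the marrow of wild-type C57BL/6 mice aged 8 to 12 weeks. Marrow cells were differentiated for 6 days with L929 supernatant, a source of macrophage colony-stimulating factor, in all groups. The control groups received no IL-4 and the IL-4 groups received 20 ng/ml for 1 h. Cross-linking used both DSG and formaldehyde, and the antibodies were against C/EBPα (sc-61X), IRF8 (sc-32528x) and JUNB (sc-46x), which gave 3 control and 3 IL-4 lists with 1 sample each. There were no replicates, so no spread between samples and no test can be given, and the read depth is unknown. Intervals are 95% Wilson intervals (for medians, exact order-statistic intervals), and with the limits given for counts of 0 they cover counting error only. As a check of the cell label, all 9 macrophage marker genes had at least 1 peak, with Adgre1 listed under its older symbol Emr1 and Spi1 under Sfpi1 (11 peaks). Peaks were also assigned to 3 of 4 B cell, 2 of 4 T cell and 2 of 4 neutrophil markers, so a peak near a gene did not separate the cell types.

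Zinc finger proteins of the C2H2 type grip DNA with repeated finger domains, and they form the largest group of DNA-binding proteins in mammals. Many also carry a KRAB domain, which recruits TRIM28 and heterochromatin enzymes to silence retroelements and imprinted loci. Many such KRAB genes sit in clusters of related copies. Other Zfp names cover unrelated proteins, such as the CCCH-type Zfp36 family, which binds AU-rich elements in mRNA and promotes decay. C/EBPα, IRF8 and JUNB (a subunit of AP-1) are factors that occupy macrophage enhancers before a stimulus, and IRF8 binds composite sites together with PU.1. IL-4 activates STAT6, so each pair of lists shows binding shortly after that signal.

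Sequences under a choice of strong or changed Zfp peaks are shown first. Those shown were chosen after their matches were seen, so they are examples and do not stand for all strong peaks. The windows below are on mm10 (GRCm38). The 3 promoter windows come from the RefSeq promoter table, plus strand, and capitals mark a PU.1-IRF match (GGAANNGAAA on either strand). Zfp758 and Zfp943 held the highest IRF8 peaks of all Zfp genes. Zfp946, on the same chromosome, carried a variant site and a weak IRF8 promoter peak, listed only after IL-4 (2.95). Few IRF8 Zfp promoter peaks held a PU.1-IRF match in 200 bp. It was in 6 of 72 in control (8.33%, against 8.50% of all IRF8 promoter peaks). After IL-4 it was in 6 of 107 (5.61%, against 7.44%).
Zfp758, chr17:22361433-22361492, RefSeq promoter: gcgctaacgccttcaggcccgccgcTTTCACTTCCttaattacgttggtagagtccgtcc
Zfp943, chr17:21962522-21962581, RefSeq promoter: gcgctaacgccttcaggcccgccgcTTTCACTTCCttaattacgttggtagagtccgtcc
Zfp946, chr17:22424128-22424187, RefSeq promoter: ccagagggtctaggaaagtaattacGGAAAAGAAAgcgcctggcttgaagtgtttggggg
The Zfp758 and Zfp943 windows were identical, and their 300-base promoters shared an unbroken run of 248 bases. On the alignment set by that run, 257 of 293 bases were equal. The site lay 5 and 12 bases before the annotated start, and the same DNA is the start region of the divergent neighbours Zfp944 and Zfp942. Because the promoters are near-identical, reads could be split or misplaced between them, so the 2 peak scores are uncertain as separate values.

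The next windows are plus-strand stretches of 100 bases around peak centres, and capitals mark every match to PU.1-IRF, ISRE (GAAANNGAAA), C/EBP (TTGCNNAA), AP-1 (TGANTCA) or a STAT6-type site (TTCNNNNGAA), searched on both strands. ISRE and PU.1-IRF matches can overlap. They show the strongest distal IRF8 peak (Zfp706), the JUNB peak of Zfp572, the strongest heavy chain peaks counted for Zfp386, and peaks that changed with IL-4.
Zfp706, chr15:36933852-36933951, IRF8 control: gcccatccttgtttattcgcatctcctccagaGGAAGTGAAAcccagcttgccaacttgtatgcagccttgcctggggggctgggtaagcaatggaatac
Zfp572, chr15:59202508-59202607, JUNB control: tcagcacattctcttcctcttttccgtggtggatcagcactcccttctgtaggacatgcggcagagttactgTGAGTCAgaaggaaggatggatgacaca
Zfp386, chr12:115757921-115758020, C/EBPα control: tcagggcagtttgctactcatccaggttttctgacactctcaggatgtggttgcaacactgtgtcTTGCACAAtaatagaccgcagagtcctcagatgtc
Zfp386, chr12:115158352-115158451, C/EBPα IL-4: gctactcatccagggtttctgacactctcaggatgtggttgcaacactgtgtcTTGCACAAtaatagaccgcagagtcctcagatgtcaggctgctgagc
Zfp36l1, chr12:80011068-80011167, C/EBPα gained: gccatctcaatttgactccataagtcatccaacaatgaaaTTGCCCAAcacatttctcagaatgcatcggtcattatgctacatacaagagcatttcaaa
Zfp36l1, chr12:79850178-79850277, C/EBPα lost: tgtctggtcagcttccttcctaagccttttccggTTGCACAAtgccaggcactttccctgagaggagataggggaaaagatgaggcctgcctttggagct
Zfp609, chr9:65828526-65828625, C/EBPα rose: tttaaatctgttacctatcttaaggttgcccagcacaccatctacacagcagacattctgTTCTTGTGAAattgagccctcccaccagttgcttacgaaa
Zfp459, chr13:67423263-67423362, JUNB gained: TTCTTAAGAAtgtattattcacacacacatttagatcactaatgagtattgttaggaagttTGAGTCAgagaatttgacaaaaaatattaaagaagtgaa
Zfp36l2, chr17:84148933-84149032, JUNB lost: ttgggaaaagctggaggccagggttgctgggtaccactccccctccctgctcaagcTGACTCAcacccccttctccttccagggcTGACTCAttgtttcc
The Zfp706 window held a PU.1-IRF match, the Zfp572 window an AP-1 match, and both Zfp386 windows the same C/EBP match. These 2 windows are not typical. In 200 bp a C/EBP match was in 8 of 37 C/EBPα heavy chain peaks in control (21.6%) and 11 of 40 after IL-4 (27.5%). Over all C/EBPα peaks it was in 34.3% and 33.3%. In the IRF8 heavy chain peaks it was in 27.9% and 30.0%. The window of the JUNB peak lost at Zfp36l2 held 2 AP-1 matches. The Zfp609 window held a STAT6-type match and the Zfp459 window both a STAT6-type and an AP-1 match. Windows without a match are not shown. They include those of Zfp949 and Zfp821, the highest JUNB Zfp peaks. The promoter peaks of Zfp35 (C/EBPα, 29.04 in control) and Zfp809 (IRF8, 29.01 after IL-4) also held no match in 200 bp. The windows of the highest C/EBPα peaks, at Zfp407 and Zfp608, are not shown here either. A match is a description of letters and not evidence of a bound site.

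The C/EBPα lists held 333 Zfp peaks without IL-4 and 346 with it. IRF8 lists held 517 and 624, and JUNB lists 40 and 25. These were 1.36% and 1.41% of the C/EBPα lists, 1.38% and 1.48% of the IRF8 lists, and 1.02% and 1.08% of the JUNB lists. In control, 125 Zfp genes had a C/EBPα peak, 200 an IRF8 peak and 27 a JUNB peak, and 22 genes had all 3. After IL-4 the numbers per factor were 131, 230 and 19. Of all 14930 genes, 9327 had a C/EBPα peak, 12167 an IRF8 peak and 2715 a JUNB peak in control. After IL-4 these were 9319, 13302 and 1850. IRF8 was the sole factor with a peak at 111 of the 260 genes (42.7%, 36.8 to 48.8), against 29.9% of all 14930 genes. The IRF8 lists are the longest. The distribution over genes was uneven, with a median of 4 peaks per gene, 54 genes with 1 peak, and 674 peaks (35.8%) at the 10 leading genes.

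**Figure D1:**
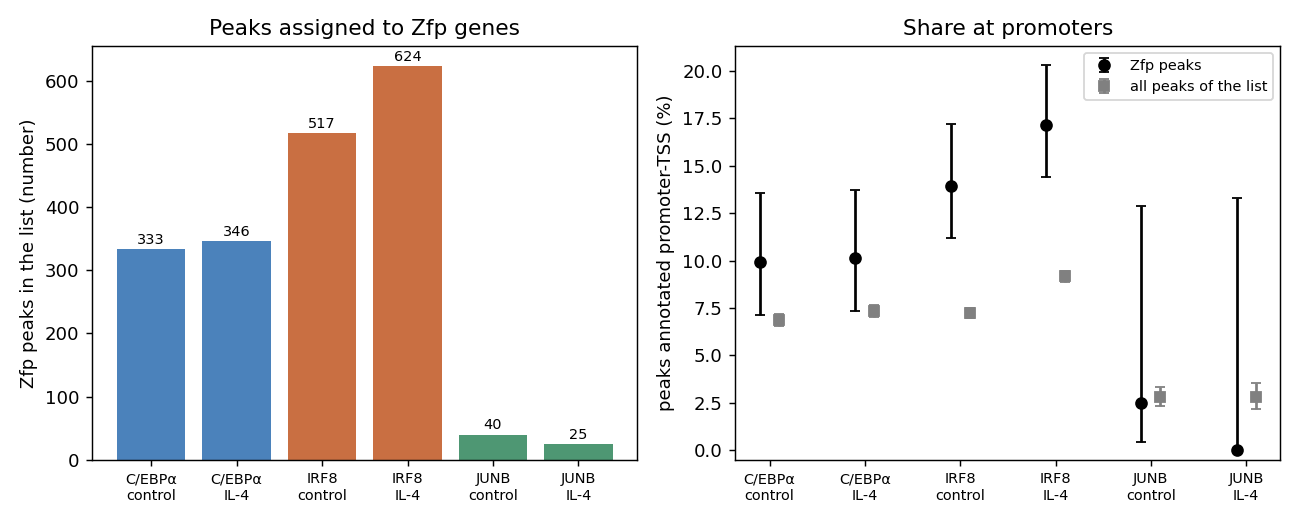
Left, number of peaks assigned to Zfp genes in each of the 6 lists (bars). Right, share of peaks annotated as promoter-TSS for Zfp peaks (black circles) and for all peaks of the list (grey squares), with 95% Wilson intervals; the IRF8 Zfp shares of 13.9% and 17.1% lie above the 7.25% and 9.16% of all IRF8 peaks.

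The promoter share of the IRF8 Zfp peaks was above that of the whole list in both conditions. In control, 72 of 517 Zfp peaks of IRF8 (13.9%, 11.2 to 17.2) were annotated as promoter, against 7.25% of all IRF8 peaks. After IL-4 it was 107 of 624 (17.1%, 14.4 to 20.3) against 9.16%. For C/EBPα the shares were 9.91% (33 peaks) and 10.1% (35 peaks), against 6.88% and 7.35%, and the lower ends of the Zfp intervals, 7.14% and 7.36%, stood close to those values. JUNB had 1 promoter peak in control, at Zfp219 (score 4.26), and 0 of 25 after IL-4, which allows a share of up to 12.0%. The intergenic share was higher too. In the IRF8 control list 55.1% of Zfp peaks and 43.0% of all peaks were intergenic, and 28.2% and 45.6% were intronic.

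The peak score was read as a −log10 significance value, since its deposited unit is unstated. C/EBPα Zfp peaks had medians of 10.9 and 11.1 in control and IL-4, against 11.2 and 11.2 for all peaks. IRF8 Zfp peaks had 8.27 and 8.41 against 10.3 and 9.61. JUNB Zfp peaks had 8.25 and 5.63 against 7.88 and 6.21. Promoter peaks of IRF8 at Zfp genes had a lower median score than the distal ones, 5.76 against 8.88 in control. The same held over all IRF8 control peaks, with 7.34 and 10.52.

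At the level of annotated genes, 395 protein-coding Zfp genes of RefSeq were counted, of which 212 lie next to another Zfp gene and 183 do not. This set is not the 260 genes named in the peak lists. Of those 260, 253 still fit the name rule by RefSeq symbol, and 273 of the 395 had a peak. In control 72 of the 395 (18.2%, 14.7 to 22.3) had an IRF8 promoter peak, against 11.5% of 20996 protein-coding genes. After IL-4 it was 106 (26.8%, 22.7 to 31.4) against 16.3%. In control a C/EBPα peak was assigned to 22.6% of the neighbouring Zfp genes (17.5 to 28.7) and 42.1% of the others (35.2 to 49.3), against 39.5% of all protein-coding genes. A JUNB peak was assigned to 1.42% and 12.6%, against 11.3%. For IRF8 the values were 46.7% (40.1 to 53.4) and 59.0% (51.8 to 65.9), against 51.4%. An IRF8 promoter peak was at 19.3% of the neighbouring Zfp genes (14.6 to 25.2) and 16.9% of the others (12.2 to 23.0).

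The highest Zfp scores in the IRF8 lists were at the promoters of Zfp758 (chr17:22361256-22361683 in control), with 222.42 in control and 258.78 after IL-4, and Zfp943 (chr17:21962375-21962851 in control), with 205.23 and 255.11. Both were higher after IL-4. A distal peak 73500 bp from the Zfp706 start followed, with 196.88 and 205.89. No other Zfp promoter peak passed 38.39, the C/EBPα score at Zfp326 in control, which was 32.19 after IL-4. Zfp326 encodes a subunit of a complex that links transcription to splicing. At Zfp935 the IRF8 promoter score was 31.32 and 31.06. Among C/EBPα peaks the highest were intergenic, near Zfp407 (169.24 and 217.96), Zfp608 (159.53 and 153.44) and Zfp386. The latter were 2 peaks in the heavy chain locus, with 126.68 in control and 102.88 after IL-4 at one and 126.41 and 146.57 at the other. In its detailed annotation the Zfp407 peak was a TTGG simple repeat in control and intergenic after IL-4. JUNB scores were far lower, at Zfp949 (35.86 and 25.14), Zfp821 (33.12 and 24.45) and Zfp572 (28.77 and 17.30), and each was lower after IL-4. The Zfp949 peak was annotated as a 7SL RNA repeat and the Zfp821 peak as a B1 SINE, so reads there may come from other copies.

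**Figure D2:**
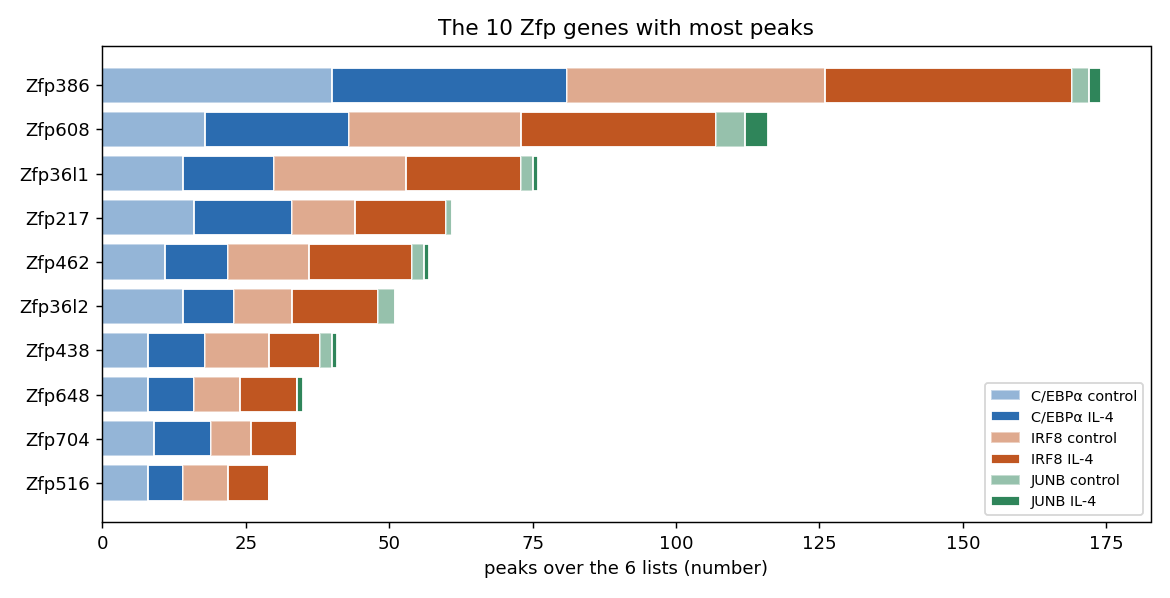
Peaks per gene for the 10 Zfp genes with most peaks, stacked by factor (colour) and condition (pale control, dark IL-4). Zfp386 leads with 174 peaks and Zfp608 follows with 116; JUNB adds the narrowest segments.

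Zfp386 had the most peaks, 174, and most of them lay elsewhere than at the gene. In total 163 (93.7%) were inside the immunoglobulin heavy chain locus, Igh (chr12:113254830-116010093, 217 annotated segments and genes), which encodes antibody heavy chains and whose V end neighbours Zfp386 (chr12:116047724-116063209). In the deposited annotation Zfp386 holds the nearest TSS for all 163. These peaks formed 67 separate regions, and 116 of the 163 lay within 1 kb of a V segment. Peak centres were close to the 3′ ends of V segments, 84 of 163 (51.5%) within 100 bp. This is where the recombination signal sequence begins, and its heptamer CACAGTG, read on either strand, was in the 200-bp window of 83 peaks (50.9%), against 6.50% of all 134964 peaks. Because the heptamer lies at the V segment ends, its share follows from those distances and is not a separate result. For the C/EBPα control list it was 26 of 37 peaks within 100 bp of such an end, and for IRF8 17 of 43. The V families Ighv1 (131 peaks) and Ighv8 (32 peaks) were the nearest in every case. The peaks were chosen as nearest to Zfp386, at the V end of the locus, so the families found depend on that choice. V segments are closely related copies, so the placement of reads among them is uncertain.

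**Figure D3:**
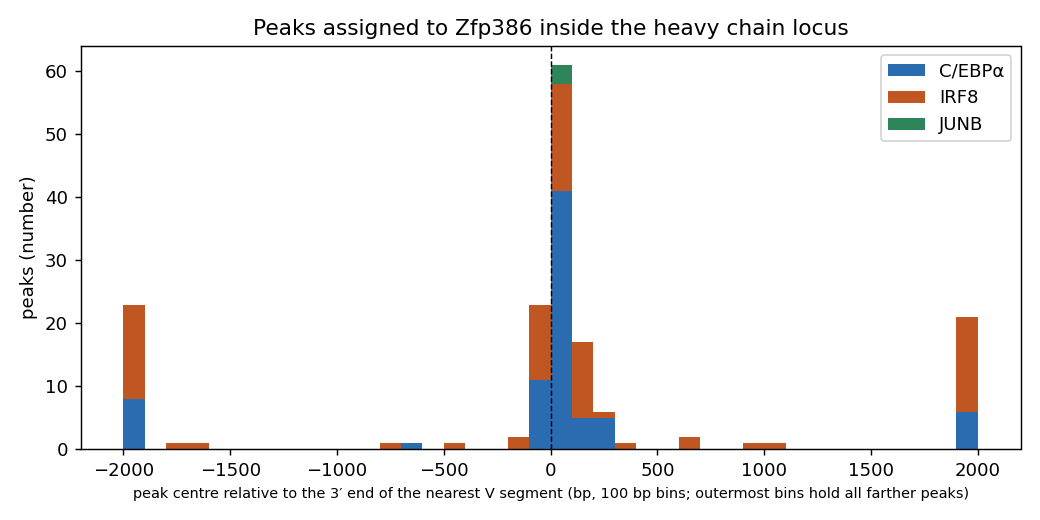
Distance from the centre of each of the 163 Zfp386-assigned peaks inside the heavy chain locus to the 3′ end of the nearest V segment, in 100 bp bins, positive values being downstream; colours give the factor and the outermost bins hold farther peaks. The centres pile up within 100 bp of the end, with 84 of 163 peaks there.

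At Zfp386 itself there were 11 peaks. A site in intron 1 (chr12:116054282-116054863) was bound in all 6 lists, with IRF8 scores of 179.94 and 178.98, C/EBPα scores of 19.28 and 14.88, and JUNB scores of 8.83 and 2.80, in control and IL-4. The C/EBPα promoter peaks of 6.68 and 3.42 in control had no counterpart after IL-4. In all, 12 of 898 Zfp regions were present in all 6 lists, against 993 of 60847 regions. They lay at Zfp281, Zfp386 (2 regions), Zfp395, Zfp957, Zfp572, Zfp438, Zfp608 (4 regions) and Zfp462. At Zfp572 IRF8 scored 134.57 and 176.73 while C/EBPα scored 15.37 and 17.64. At Zfp281, a GC-box binding protein, IRF8 went from 58.95 to 32.89 and C/EBPα from 69.06 to 79.98.

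Zfp608 came next with 116 peaks, 80 of them over 100 kb from its start. It had 18 and 25 C/EBPα peaks, 30 and 34 IRF8 peaks and 5 and 4 JUNB peaks. Zfp36l1, an mRNA decay factor, had 76 peaks, namely 14 and 16 C/EBPα peaks, 23 and 20 IRF8 peaks, and 2 and 1 JUNB peaks. Zfp217, a transcriptional repressor that binds CtBP corepressors, had 61 peaks, with 16 and 17 C/EBPα, 11 and 16 IRF8 and 1 and 0 JUNB peaks. Zfp462, a chromatin regulator, had 57, Zfp36l2 51, Zfp438 41, Zfp648 35, Zfp704 34 and Zfp516, a coactivator in brown fat, 29.

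Taken as a whole, the Zfp peaks of C/EBPα changed after IL-4 about as the list did. Of 333 control peaks 63 were lost (18.9%, 15.1 to 23.5), where 21.4% of all C/EBPα peaks were lost. Of 346 IL-4 peaks 76 were gained (22.0%, 17.9 to 26.6), where the share over all peaks was 22%. A shared peak overlapped by at least 1 bp, and the fold is the IL-4 score over the control score. The median fold of 269 shared Zfp peaks was 1.02 (0.963 to 1.08), against 0.997 over all. At least 1.5-fold higher were 49 peaks (18.2%, 17.7% of all) and at least 1.5-fold lower 46 (17.1%, 17.8% of all).

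IRF8 gains at Zfp genes exceeded the share over all IRF8 peaks. Peaks gained were 226 of 624 (36.2%, 32.5 to 40.1) against 30.4% of all. With equal numbers of peaks taken by score rank from both IRF8 lists the values were 29.7% and 25.3%. Lost peaks were 116 of 517 (22.4%, 19.1 to 26.2) against 21.4%. The median fold of 399 shared peaks was 1.10 (1.04 to 1.17), against 1.06 over all. Higher by at least 1.5-fold were 103 (25.8%, against 23.6%) and lower 60 (15.0%, against 17.5%). Promoters showed more gain than distal sites, 55 of 107 (51.4%) against 33.1%, and the same held over all IRF8 peaks with 48.0% and 28.7%. The median fold was 1.27 at Zfp promoters and 1.06 at distal Zfp peaks, against 1.21 and 1.05 over all IRF8 peaks.

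JUNB lost 23 of 40 Zfp peaks (57.5%, 42.2 to 71.5), where 64.2% of all JUNB peaks were lost, and gained 8 of 25 (32.0%, 17.2 to 51.6), where the share was 39.2%. The 17 shared Zfp peaks had a median fold of 0.601 (0.459 to 0.738), against 0.685 over all. None of 17 was 1.5-fold higher, which allows a share of up to 17.6% (9.6% of all were), and 10 of 17 (58.8%) were at least 1.5-fold lower (47.9% of all). In 2 of the 17 the score was higher after IL-4, at Zfp281 (7.19 and 8.71) and Zfp462 (7.36 and 7.50).

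**Figure D4:**
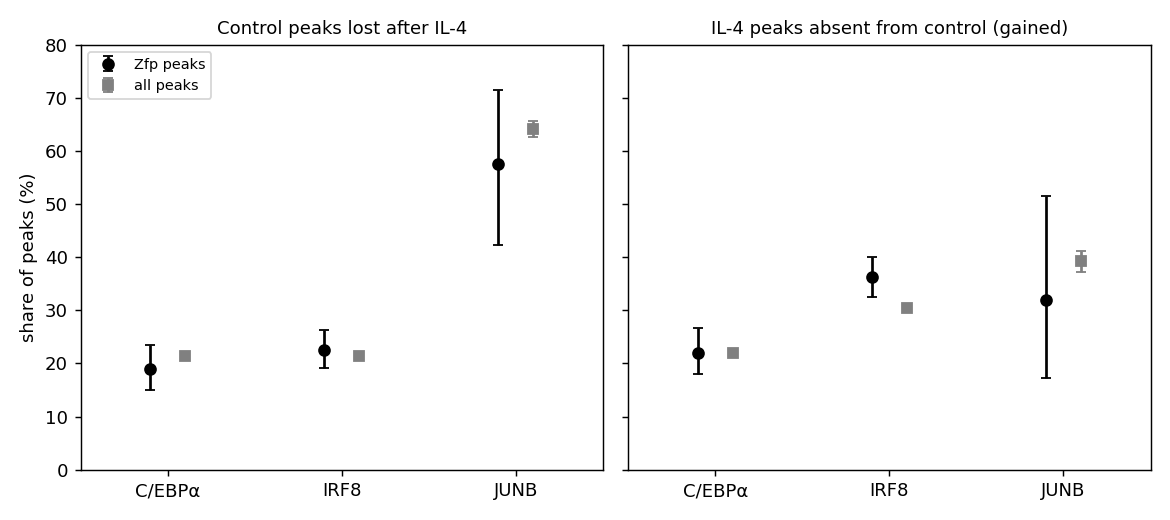
Share of control peaks lost (left) and of IL-4 peaks gained (right) for Zfp peaks (black circles) and all peaks (grey squares) of each factor, with 95% Wilson intervals. The gained share of IRF8, 36.2%, lies above the 30.4% of all peaks, and the other Zfp intervals include the value over all peaks.

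The genes that gained most peaks over the 3 factors were Zfp608 (20), Zfp386 (15), Zfp36l1 (9), Zfp365 (9) and Zfp217 (8). The genes that lost most were Zfp386 (17), Zfp36l1 (11), Zfp608 (10), Zfp36l2 (8) and, tied, Zfp438 and Zfp516 (5 each). For Zfp386, 14 of the 15 gained and 15 of the 17 lost peaks lay in the heavy chain locus. Gains occurred at 159 of the 260 Zfp genes (61.2%, against 62.0% of all 14930 genes), losses at 108 (41.5%, against 51.5%), and 58 had neither (22.3%, against 20.5%). In all 310 Zfp peaks were gained and 202 lost. Zfp608 gained 8 C/EBPα and 12 IRF8 peaks and lost 1 and 8. Zfp36l2 lost 5 C/EBPα peaks and all 3 JUNB peaks but gained 5 IRF8 peaks and lost none. Zfp365 gained 6 IRF8 peaks and lost 1.

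The highest gained C/EBPα peaks lay at Zfp36l1 (40.77, chr12:80010970-80011267), Zfp91 (29.61, an intron), and Zfp608 (27.91). Zfp91 encodes a ubiquitin ligase of the non-canonical NF-κB pathway. The same Zfp608 site gained an IRF8 peak of 22.10. The highest lost C/EBPα peaks were at Zfp36l1 (15.52), Zfp607 (14.38) and Zfp715 (12.24, an LTR). IRF8 gained peaks at Zfp217 (23.44, chr2:170155502-170155780) and Zfp462 (19.71), and lost those at Zfp827 (26.44, promoter), Zfp346 (19.70) and Zfp541 (18.62, promoter). The highest JUNB gains were Zfp459 (7.07), Zfp868 (7) and Zfp120 (6.37), and the highest losses Zfp36l2 (11.66), Zfp217 (10.39) and Zfp523 (9.86).

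Among shared peaks C/EBPα rose most at Zfp608 (11.22 to 75.92, 6.77-fold), Zfp622 (5.54 to 37.02) and Zfp609 (7.11 to 36.65). It fell most at Zfp91 (12.13 to 3.55), Zfp36l2 (11.03 to 3.85) and Zfp217 (15.59 to 5.49). The Zfp91 peak that fell lay 13126 bp from the start and the one gained 11900 bp from it, so the pair moved in opposite directions within a short stretch. IRF8 rose most at Zfp386 (5.71 to 27.60, inside the heavy chain locus), Zfp438 (2.78 to 13.29) and the promoter of Zfp445 (4.36 to 18.98), an imprinting regulator. It fell most at Zfp608 (14.46 to 3.94), Zfp667 (10.17 to 2.87) and Zfp36l2 (10.52 to 3.04). JUNB fell most at Zfp438 (10.19 to 2.17), Zfp746 (13.83 to 5.26) and Zfp386 (13.14 to 6.03). Around Zfp217, the IRF8 gain, the C/EBPα fall and the JUNB loss lay at -12966, -15517 and -17620 bp relative to the start. In the same stretch a shared C/EBPα peak at -11006 bp rose from 18.1 to 45.51 (2.51-fold), and a shared IRF8 peak at -12524 bp fell from 26.34 to 11.67.

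**Figure D5:**
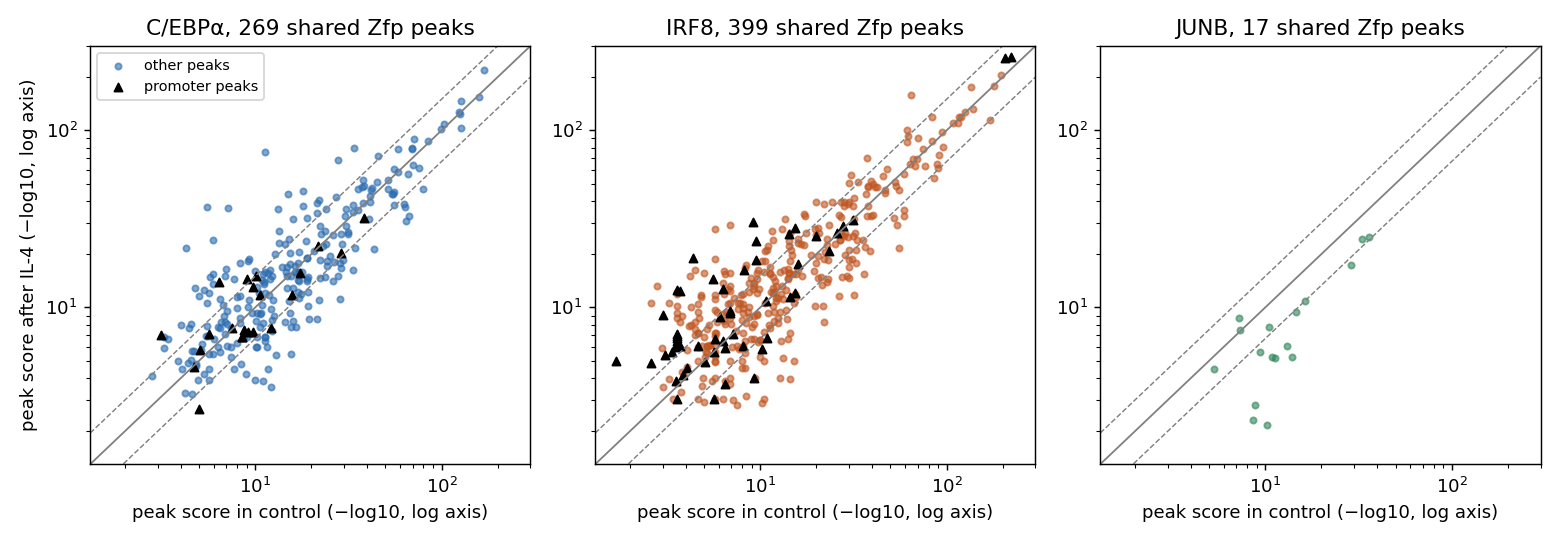
Peak score in control (x) and after IL-4 (y), both on log axes, at shared Zfp peaks, with promoter peaks as black triangles and other peaks coloured; the solid line is equality and the dashed lines are 1.5-fold either way. The 17 JUNB peaks lie mostly under the equality line (median fold 0.601), and the IRF8 peaks spread around it with a median fold of 1.10.

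Motifs were counted in 200 bp around the peak centre. STAT6-type matches were in 13 of 76 gained C/EBPα Zfp peaks (17.1%, 10.3 to 27.1) and in 22 of 270 kept ones (8.15%, 5.44 to 12.0). Over all C/EBPα peaks the shares were 20.0% and 7.24%. For IRF8 they were 9.73% of gained Zfp peaks and 6.98% of kept ones, against 11.9% and 6.64% over all. PU.1-IRF matches were in 58 of 401 kept IRF8 Zfp peaks (14.5%, 11.4 to 18.2) and 12 of 226 gained ones (5.31%, 3.06 to 9.05), against 16.7% and 7.66% over all. AP-1 matches were in 22 of 40 JUNB control Zfp peaks, 55.0% against 55.2% over all. C/EBP matches were in 35.4% of C/EBPα control Zfp peaks against 34.3%. In RefSeq promoters PU.1-IRF matches were in 14 of 406 Zfp entries (3.45%, 2.06 to 5.70), which is 11 distinct stretches of DNA, and in 2.72% of 32851 entries. The other shares at Zfp promoters were 2.22% for ISRE (3.44% of all), 6.16% for C/EBP (10.8%), 3.69% for AP-1 (7.81%) and 6.65% for STAT6-type matches (6.95%). An IRF8 promoter peak in control was at 2 of the 14 Zfp entries with a PU.1-IRF match (14.3%) and 82 of 392 without it (20.9%). Over all entries these shares were 12.7% and 8.02%. After IL-4 the counts were 6 of 14 (42.9%) and 104 of 392 (26.5%), against 17.3% and 11.3% over all. A peak counts here only for the gene it was assigned to. Zfp942 and Zfp944 share the sites of Zfp943 and Zfp758 but count as without a peak. After IL-4 Zfp384 is counted in 2 entries that hold the same stretch. The Zfp shares with a match therefore depend on the assignment.

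Most Zfp regions held 1 factor. In control 70.2% of 667 Zfp regions were bound by 1 factor, 26.7% by 2 and 3.15% by 3, against 68.1%, 26.5% and 5.38% over all regions. JUNB Zfp regions overlapped C/EBPα in 23 of 40 cases (57.5%) and IRF8 in 30 (75%), against 73.0% and 81.6% over all. C/EBPα and IRF8 were gained together in 12 of 898 Zfp regions (1.34%, 0.766 to 2.32), against 1.23% of all regions, and lost together in 3 (0.334%, 0.114 to 0.978), against 0.608%. Examples of joint gain were Zfp36l2 (18.15 and 13.77, chr17:84226765-84227033), Zfp874b (3.98 and 6.91) and the promoters of Zfp825 (4.39 and 4.77) and Zfp64 (5.94 and 2.14). At Zfp874b the C/EBPα peak was annotated as promoter and the IRF8 peak was not.

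For the lists of Zfp genes by function below, the counts of genes with a peak stand beside a high background. Over the 6 lists, 69.1% of the 395 RefSeq protein-coding Zfp genes and 62.9% of 20996 protein-coding genes had at least 1 peak. The 395 differ from the 260 genes named in the peak lists. The mRNA decay genes held 136 peaks, at 3 of 4 genes. C/EBPα peaks there were 29 in control and 26 after IL-4, IRF8 36 and 37, and JUNB 6 and 2. The whole JUNB lists held 3940 and 2325 peaks. Zfp36, the founding member, had 9, with IRF8 top scores of 27.27 and 32.48. The imprinting and retroelement silencing list had 18 peaks at 5 of 6 genes, and Zfp809, a silencer of proviruses, had an IRF8 promoter peak of 27.89 and 29.01. The NET family (Zfp503 and Zfp703) had 31 peaks, the GC-box binders (Zfp148 and Zfp281) 26, the Z3 complex (Zfp592 and Zfp687) 17, the promoter and chromatin architecture list 18 at 4 of 5 genes, and the EBF partners 6, all at Zfp521. The blood and immune list had 16 peaks at 3 of 4 genes. Zfp366, known from dendritic cells, gained 3 IRF8 peaks and lost 1, and its highest score went from 28.04 to 37.41. The partners of KRAB zinc finger proteins, which are not Zfp genes, had 70 peaks at 11 of 14 genes, with 9 of 25 IRF8 peaks gained (36%, against 30.4% of all) and 3 of 19 lost (15.8%, against 21.4%).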

How the data were processed

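The 6 ChIP-seq peak lists were made by the authors. Per the submitters' processing notes, the tools were BWA 0.7.10, SAMtools 0.1.19, MACS2 2.0.10 and HOMER 4.2, on mm10, and peaks were called per sample. The deposited peak score carries no stated unit and was read as a −log10 significance (p- or q-value), from its range. Between 1 and 48 peaks of each list score under 2. The q-value limit in the study's methods would allow no such score on a −log10 q or a −log10 p scale. The unit, or the limit used for these lists, therefore stays uncertain. The score rises with depth, which is unknown, as is the control library. Distance to the TSS and annotation were used as deposited. Libraries were made with either of 2 kits, and which kit served which sample is not given in the sources used here, so kit and condition cannot be told apart.

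Zfp members and gene lists were chosen with earlier results of these data known. Peaks of a factor's 2 lists were shared at an overlap of at least 1 bp and paired one-to-one, largest overlap first. The others were gained or lost. Fold was the IL-4 score over the control score, called at 1.5. Regions were merged over the 6 lists where peaks touched. Motifs were searched in 200 bp. Genes were named by a rule (the 10 with most peaks, the 5 with most gains and losses, per list the 3 highest peaks, per factor the 3 highest gained and lost and the 3 largest rises and falls at a score of at least 10 in either list, the 5 highest promoter peaks, and fixed functional lists). Zfp946, Zfp944, Zfp942, Zfp219, Zfp935, Zfp35, Zfp874b, Zfp825, Zfp64 and the regions present in all lists were named after their values were seen. Alternatives changed the overlap (50% reciprocal), a score minimum of 5, rank matching, the distance limit (100 kb), the promoter definition (2000 bp) and score scaling, and leaving out the heavy chain peaks was added after seeing the data. The deposited distance came within 10 bp of the RefSeq one for 82.2% of peaks. Python 3.11.15, pandas 2.3.3, scipy 1.17.1, numpy 2.4.6, matplotlib 3.10.9, samtools 1.23.1 and bedtools 2.31.1 were used. The code passed 9 of 9 checks. Some used simulated data, and those of overlap and merging compared the real peak lists with bedtools.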

Additional observations from a re-analysis of the deposited data

Results flagged for a closer look

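The numbers of IRF8 and JUNB peaks at Zfp genes moved in opposite directions after IL-4. The IL-4 list held 1.21 times as many IRF8 Zfp peaks as the control list (624 and 517), and 0.625 times as many JUNB Zfp peaks (25 and 40). With 1 sample per group this difference was not tested, and list length moved the same way, with 1.12 times as many IRF8 peaks and 0.590 times as many JUNB peaks over all genes.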

How the results depend on the processing

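Of 78 alternatives 57 left the value within its own interval, 21 moved it and 0 reversed it. Values over all peaks under the same setting are in brackets. With 50% reciprocal overlap, C/EBPα Zfp peaks kept were 75.7% (74.2%) and gained 27.2% (26.2%). IRF8 kept was 67.9% (69.8%) and gained 43.8% (37.8%). With a score minimum of 5, IRF8 gained was 31.2% (25.5%) and its promoter shares were 10.5% (6.32%) and 13.7% (8.05%). The JUNB control promoter share was then 0% (2.48%). With equal numbers of peaks by score rank, IRF8 kept was 72.7% (75.4%) and gained 29.7% (25.3%). JUNB kept was 59.3% (47.2%) with a control promoter share of 0% (1.85%). Within 100 kb, the promoter share was 13.8% (8.35%) for C/EBPα after IL-4, and 18.1% (8.37%) and 21.5% (10.5%) for IRF8. Calling promoters by a distance of 2000 bp gave 15.3% (13.7%) and 16.5% (14.6%) for C/EBPα. The C/EBPα Zfp intervals there, 11.8 to 19.6 and 12.9 to 20.7, included the values over all peaks. For IRF8 the shares were 22.6% (14.1%) and 26.3% (16.6%). Dividing scores by the list median gave a fold of 1.18 (1.14) for IRF8 and 0.763 (0.87) for JUNB. The causes of these moves were not tested. Leaving out the heavy chain peaks moved no value past its interval. No paired analysis was possible because each group had 1 sample. Depth and the number of reads are unknown, so depth and IL-4 cannot be told apart as sources of gains and losses.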
